A study of Mus musculus with 11 samples.

Results

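The major histocompatibility complex (MHC) and antigen presentation genes were followed across 4 genotypes in bulk RNA-seq of mouse tissue labelled cerebellar hemisphere. They were taken as every row of the count table whose symbol begins with H2-, the mouse name of the MHC, together with B2m, Tap1, Tap2, Tapbp, Psmb8, Psmb9, Cd74, Nlrc5 and Ciita, provided that the row held at least 10 counts in total over the 11 libraries. Of 51 rows with such names, 38 passed this minimum, among 17557 genes that passed it out of 22609 listed. The 38 members comprised 24 genes of the class I side (17 heavy chains and 7 genes of the loading machinery), 12 of the class II side (10 chains, Cd74 and Ciita) and 2 genes of the region that belong to neither class, H2-Ke2 and H2-Ke6. Of the 13 rows below the minimum, all of them class I heavy chains by name, 11 held 0 counts in every library, H2-Q7, H2-Q9 and H2-T9 among them.

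The libraries were made from polyadenylated RNA of tissue labelled cerebellar hemisphere, from untreated mice of both sexes in a single labelled batch. The control group had 3 libraries, from mice that by the study's methods carried floxed Nfasc and floxed Ank3 (AnkG) alleles and no Cre, although the methods in another place allow 1 or both floxed genes and the results text writes this genotype with Pcp2-Cre. The NF-KO group (Pcp2-Cre;NfascFx/Fx) had 3 libraries, the AnkG-KO group (Pcp2-Cre;AnkGFx/Fx) had 2, and the Pcp2-DKO group (Pcp2-Cre;NfascFx/Fx;AnkGFx/Fx) had 3. Pcp2-Cre is a transgene that drives Cre recombinase mainly in Purkinje cells, so the floxed alleles were meant to remain intact in the glia, vessels and immune cells of the same tissue. The labels give the age as postnatal day 30 in one field and 32 in another, and the strain as C57BL/6J in one field and as a mixed background with 129 in another.

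Between 38.9 M and 55.8 M counts fell on genes in each library, and levels are given as CPM (counts scaled to the library total) after TMM scaling. The smallest level treated as detected, 3 counts, equalled 0.0537 to 0.0771 CPM, a limit that covers counting error only. Expression of Ank3 was 363 ± 11.1 CPM in control and 392 ± 12.4 in NF-KO (SD, n = 3 each), against 178 ± 31.4 in AnkG-KO (SD, n = 2) and 173 ± 12.7 in Pcp2-DKO (SD, n = 3), whereas Nfasc lay between 559 and 953 CPM in all libraries. The labelled tissue was not uniform by its markers. The Purkinje cell gene Pcp2 reached 26.3 CPM in control library 1 and 28.3 CPM in NF-KO library 1. It reached only 0.0929 to 2.14 CPM in the other 9 libraries, which include all of AnkG-KO and Pcp2-DKO. Granule cell markers (Gabra6, Cbln3, Neurod1, Zic1, Zic2 and Fat2) summed to 613 CPM in control library 1 and 513 in NF-KO library 1. They summed to 39.2 to 104 CPM in the other 9. The 9 caudal Hox genes, which mark the spinal cord, summed to 299 to 538 CPM in every library. Each comparison below that includes control library 1 or NF-KO library 1 was therefore also fitted without both.

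Class I molecules are built from a heavy chain and beta-2 microglobulin and show peptides from inside the cell to CD8 T cells. The peptides are cut by proteasomes, including the inducible subunits encoded by Psmb8 and Psmb9, carried into the endoplasmic reticulum by the Tap1 and Tap2 transporter and loaded with the help of tapasin, the product of Tapbp. Class II molecules pair an alpha and a beta chain, are escorted by the invariant chain Cd74, exchange peptides with the help of H2-DM and show them to CD4 T cells. Nlrc5 is the master coactivator of class I genes and Ciita that of class II genes. In the healthy brain class I expression is low but widespread, while class II is largely limited to macrophages at the borders of the tissue and to a few microglia.

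The promoters of both classes share a short set of control elements, and 4 stretches of them are shown because they carry the Y box, which occurred on both sides, and the kappa B element. Promoter sequence (250 bases before to 50 after the start, RefSeq, GRCm38.p6) was found for 26 members. The Y box, searched as CTGATTGG on both strands, occurred in 4 of 8 class II side promoters and 6 of 16 class I side promoters, against 4.70% of the 27025 genes with a promoter. A kappa B element, searched as GGGATTCCC on both strands, occurred in 3 of 16 class I side promoters (H2-K1, H2-D1 and H2-Q6), in none of the 8 of class II, and in 0.414% of all genes. The interferon response core, GAAANNGAA on either strand, was present in the H2-T22, H2-T23 and B2m promoters (9.76% of all genes), and the cyclic AMP element TGACGTCA in that of H2-Aa (2.03% of all genes). These matches describe the letters only. In the first pair, the alpha chain gene H2-Aa (chr17:34287854-34287963, minus strand) and the beta chain gene H2-Eb1 (chr17:34305727-34305836, plus strand), capitals mark the Y box.
H2-Aa: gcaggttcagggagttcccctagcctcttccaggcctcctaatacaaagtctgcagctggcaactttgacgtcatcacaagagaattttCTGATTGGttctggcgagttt
H2-Eb1: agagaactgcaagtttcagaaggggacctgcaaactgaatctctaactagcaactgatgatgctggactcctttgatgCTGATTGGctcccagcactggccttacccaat
In the second pair, the classical class I heavy chain genes H2-K1 (chr17:34000348-34000477, minus strand) and H2-D1 (chr17:35262904-35263053, plus strand), capitals mark the kappa B element and, in H2-D1, the Y box on the other strand.
H2-K1: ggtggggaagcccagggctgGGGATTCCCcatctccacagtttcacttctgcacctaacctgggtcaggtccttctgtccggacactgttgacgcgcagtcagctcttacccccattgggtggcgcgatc
H2-D1: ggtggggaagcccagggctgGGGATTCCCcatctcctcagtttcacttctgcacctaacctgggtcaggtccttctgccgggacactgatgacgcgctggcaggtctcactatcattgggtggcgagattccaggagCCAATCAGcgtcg

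Among the class I heavy chains, the classical genes H2-K1 and H2-D1 provided most of the signal and differed little between genotypes. H2-D1 was at 77.4, 80.5 and 76.0 CPM in control libraries 1, 2 and 3, at 60.5, 58.5 and 86.8 in NF-KO, at 75.8 and 70.4 in AnkG-KO and at 80.2, 97.4 and 86.5 in Pcp2-DKO. H2-K1 was at 37.3, 45.3 and 37.5 CPM in control, 42.3, 50.4 and 48.7 in NF-KO, 42.2 and 39.99 in AnkG-KO and 40.8, 53.7 and 48.4 in Pcp2-DKO. For H2-K1 the control libraries overlapped with those of every knockout. For H2-D1 the NF-KO libraries lay to both sides of control, the AnkG-KO libraries lay just below it and those of Pcp2-DKO overlapped with it. Scaled by exon length, the mean level over all libraries was 25.8 CPM per kb for H2-D1 and 13.9 CPM per kb for H2-K1, against 42.3 CPM per kb for their partner B2m. Together the 17 heavy chains summed to 140 CPM in the lowest library and 183 in the highest. In bulk tissue a lower level may reflect fewer cells of a type or less RNA per cell, which cannot be told apart.

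**Figure D1:**
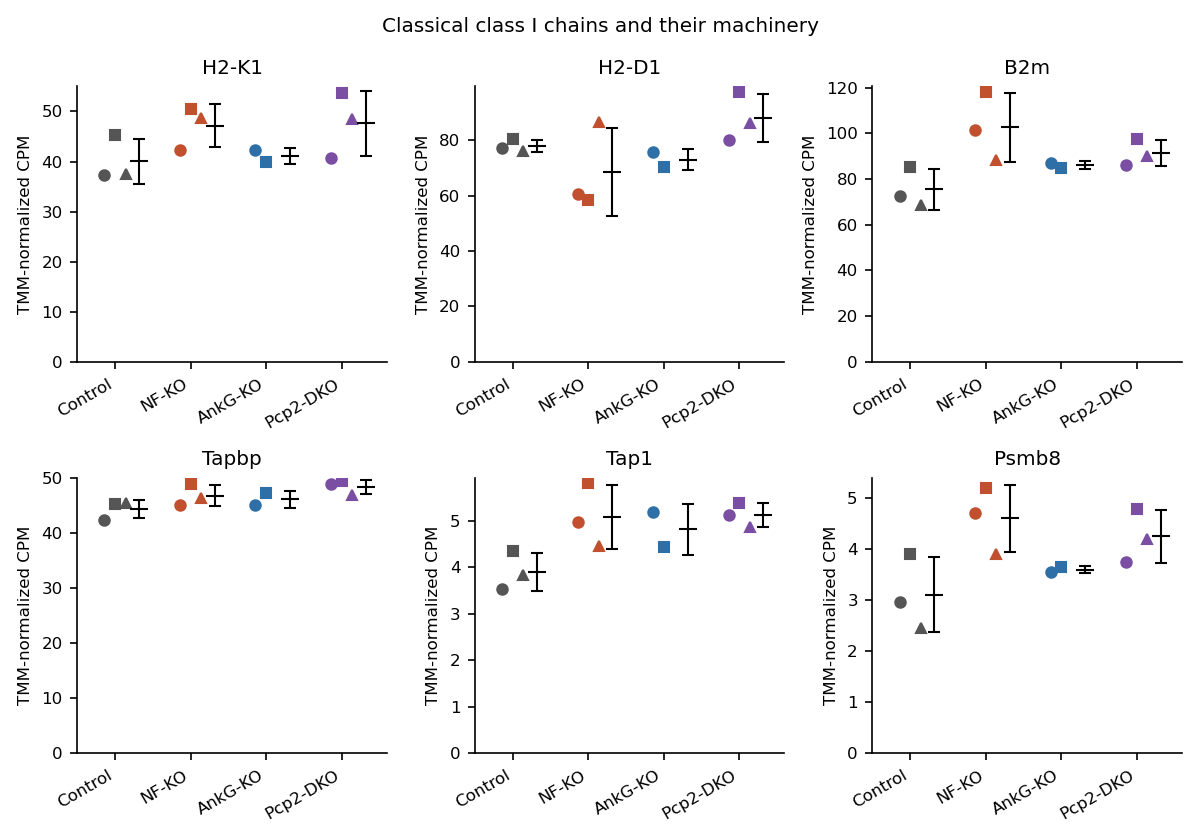
Levels of the classical class I heavy chains H2-K1 and H2-D1 and of 4 genes of their machinery, as TMM-normalized CPM on linear axes from 0, in the 11 libraries by genotype. Circles, squares and triangles are libraries 1, 2 and 3 of a genotype, and the bar gives mean ± SD. H2-D1 lay at 58.5 and 60.5 CPM in NF-KO libraries 2 and 1, below the other 9, while Tapbp stayed between 42.5 and 49.5 CPM.

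The changes that passed the test fell on 3 nonclassical heavy chains. A member passed where edgeR's quasi-likelihood fit gave it an adjusted p under 0.05 (Benjamini-Hochberg, over all genes tested) and its log2 fold change was 0.6 or more in either direction. In NF-KO against control 2 of 38 members passed, both class I heavy chains and both higher, where 0.365% of all genes passed. In AnkG-KO against control 1 member passed (0.165% of all genes), and in Pcp2-DKO against control none did (0.0228% of all genes). DESeq2 also found 0 in Pcp2-DKO. An unadjusted p under 0.05 was found for 16 of 38 members in NF-KO, 4 in AnkG-KO and 8 in Pcp2-DKO. Of all genes 7.69%, 5.39% and 7.77% had one. The 16 include H2-Ea-ps, which passed the count minimum only through NF-KO libraries. Pcp2-DKO against NF-KO gave 3 members (0.615% of all genes), Pcp2-DKO against AnkG-KO 1 (0.171% of all genes), and the interaction of the knockouts, which asks whether the double knockout differs from the sum of the single ones, gave 3 (0.53% of all genes). No class II side member passed in any of the 6 comparisons.

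H2-Bl, a heavy chain gene of the T region that RefSeq lists as a transcribed pseudogene, was raised in both single knockouts and not in the double knockout. Its level was 2.44, 1.73 and 2.74 CPM in control libraries 1, 2 and 3, 15.9, 14.002 and 21.2 in NF-KO, 11.1 and 11.2 in AnkG-KO and 2.92, 1.56 and 2.62 in Pcp2-DKO. All 5 single-knockout libraries lay above all 6 others, and the Pcp2-DKO libraries overlapped with control. H2-Bl rose 7.42-fold in NF-KO (log2 fold change 2.89, standard error 0.25, adjusted p = 0.000195 by edgeR) and 4.84-fold in AnkG-KO (2.28, standard error 0.26, adjusted p = 0.00346), and the log2 difference of Pcp2-DKO from NF-KO was -2.85 (adjusted p = 0.000236) and from AnkG-KO -2.23 (adjusted p = 0.00533). The interaction was -5.12 on the log2 scale (standard error 0.36, adjusted p = 6.64e-05). H2-Bl had no counterpart in the GENCODE annotation used here, so its shared sequence with other heavy chains could not be measured, and its counts are uncertain to that extent. With Xist as a covariate the adjusted p was 0.102 in AnkG-KO against control and 0.205 in Pcp2-DKO against AnkG-KO.

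H2-T24, a second T region heavy chain (GRCm39 chr17:36314363-36331485, minus strand), was also highest in NF-KO and next highest in AnkG-KO. It was at 2.26, 2.88 and 2.43 CPM in control, 7.77, 9.55 and 5.31 in NF-KO, 3.73 and 4.58 in AnkG-KO and 1.87, 2.20 and 2.13 in Pcp2-DKO. NF-KO libraries were all above AnkG-KO libraries, which were all above control, and all Pcp2-DKO libraries were below control. H2-T24 rose 2.98-fold in NF-KO (log2 fold change 1.58, standard error 0.21, adjusted p = 0.00403 by edgeR), while in AnkG-KO the log2 fold change of 0.72 did not pass (adjusted p = 0.543). Pcp2-DKO differed from NF-KO by -1.87 (adjusted p = 0.00109), and the interaction was -2.59 (standard error 0.31, adjusted p = 0.00169). Without NF-KO libraries 1 and 2 the log2 fold change in NF-KO was 1.07 (adjusted p = 0.220), with Xist as a covariate it was 1.62 (adjusted p = 0.0970), and without control library 1 and NF-KO library 1 it was 1.48 (adjusted p = 0.108). The difference of Pcp2-DKO from NF-KO was -1.93 with Xist as a covariate (adjusted p = 0.0538) and -1.36 without NF-KO libraries 1 and 2 (adjusted p = 0.0769), so both settings ended that call too. Of the 50-base words in its transcripts, 9.66% also occur in another gene.

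H2-M3, which presents formylated peptides of bacteria and mitochondria and lies at the far end of the complex (chr17:37581106-37585384, plus strand), showed the opposite order. It was at 4.24, 5.11 and 5.64 CPM in control, 3.16, 3.52 and 2.84 in NF-KO, 3.24 and 3.15 in AnkG-KO and 5.72, 5.14 and 6.21 in Pcp2-DKO. All 5 single-knockout libraries lay below all 6 others. The single knockouts did not pass against control (log2 fold change -0.66, adjusted p = 0.111 in NF-KO and -0.65, adjusted p = 0.333 in AnkG-KO), whereas Pcp2-DKO was higher than NF-KO by 0.84 (standard error 0.15, adjusted p = 0.0238 by edgeR) and the interaction was 1.49 (standard error 0.23, adjusted p = 0.0118). H2-M3 shares 0.385% of its words with another gene. The call against NF-KO was lost without NF-KO library 1 (adjusted p = 0.0963), NF-KO library 3 (0.0637), Pcp2-DKO library 1 (0.0633) or Pcp2-DKO library 3 (0.0913). It was also lost without control library 1 and NF-KO library 1 together (0.0948), with the replicate block (0.0517) and with Xist as a covariate (0.127). Xist as a covariate ended the interaction call too (adjusted p = 0.126). Other fits left 1 library in a group. Without NF-KO libraries 1 and 2 the difference from NF-KO was 1.00 and the interaction 1.65. The interaction was 1.51 without AnkG-KO library 1 and 1.46 without AnkG-KO library 2. With DESeq2 the single knockouts passed too (adjusted p = 0.00397 in NF-KO and 0.0358 in AnkG-KO).

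**Figure D2:**
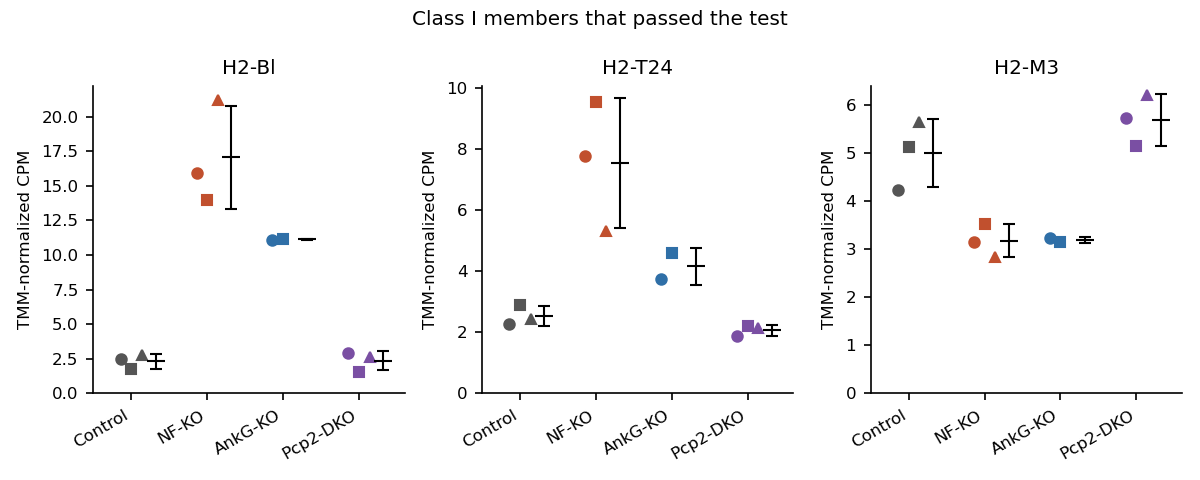
H2-Bl, H2-T24 and H2-M3 as TMM-normalized CPM on linear axes from 0, by genotype, with circles, squares and triangles for libraries 1, 2 and 3 and bars for mean ± SD. H2-Bl lay between 11.1 and 21.2 CPM in the single knockouts and between 1.56 and 2.92 CPM in control and Pcp2-DKO, and H2-M3 had the reverse order.

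A further set of heavy chains varied between libraries of 1 genotype and did not pass the test. H2-Q1, a Q region gene, was at 0.104, 1.79 and 0.738 CPM in control, 1.57, 2.60 and 2.27 in NF-KO, 2.58 and 0.217 in AnkG-KO and 0.863, 0.210 and 0.127 in Pcp2-DKO, a range of 25.01-fold with overlap between all genotypes but NF-KO and Pcp2-DKO. H2-Q6 was at 1.01 and 1.62 CPM in NF-KO libraries 1 and 2 and at 0.167 to 0.494 CPM in the other 9 (log2 fold change 1.63 in NF-KO, adjusted p = 0.320). H2-Q6 shares 30.02% of its words with other genes, chiefly H2-Q7, which was at 0 in every library. H2-K2, annotated as a transcribed pseudogene, had its lowest levels in those same NF-KO libraries, 0.842 and 1.14 CPM against 1.24 to 2.09 CPM elsewhere. The ratio of H2-D1 to H2-K1 was 1.43 and 1.16 in NF-KO libraries 1 and 2 and 1.76 to 2.08 in the other 9. H2-Q1, H2-Q6 and H2-K2 were singled out after their values were seen.

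H2-Q2 and H2-T22 lay apart from control without passing, H2-Q2 in 1 genotype and H2-T22 in 2. H2-Q2 was at 1.89, 0.981 and 0.783 CPM in Pcp2-DKO, above control at 0.3899, 0.544 and 0.595 (log2 fold change 1.24, adjusted p = 0.588). H2-T22, whose product is a ligand of gamma delta T cells, was at 0.172, 0.116 and 0.130 CPM in NF-KO, below control at 0.286, 0.403 and 0.333 (log2 fold change -1.28, adjusted p = 0.328), and at 0.186 and 0.239 CPM in AnkG-KO, also below control (log2 fold change -0.68, adjusted p = 0.998). H2-T22 shares 30.1% of its words, mostly with H2-T10, so its counts are uncertain. H2-Gs10, listed today as H2-Q4, was at 4.19 ± 0.666 CPM in control and 5.64 ± 0.196 in Pcp2-DKO (SD, n = 3 each), with no overlap (log2 fold change 0.43, adjusted p = 0.619). The other heavy chains, H2-T23, H2-T10, H2-M5, H2-Q10, H2-Q8 and H2-T3, had adjusted p values above 0.05 in all 6 comparisons, and the mean level over all libraries was 8.31 CPM for H2-T23 and no higher than 1.21 CPM for the rest.

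None of the 7 genes of the class I machinery passed in any comparison by edgeR or DESeq2. An unadjusted p under 0.05 was found for 4 of them in NF-KO against control, 1 in AnkG-KO and 3 in Pcp2-DKO, where 7.69%, 5.39% and 7.77% of all genes had one. B2m, which encodes beta-2 microglobulin, was at 72.6, 85.4 and 68.5 CPM in control, 101, 118 and 88.1 in NF-KO, 87.2 and 85.0 in AnkG-KO and 86.2, 97.7 and 90.3 in Pcp2-DKO. Every NF-KO and every Pcp2-DKO library was above every control library, by 0.44 on the log2 scale in NF-KO (standard error 0.11, adjusted p = 0.158 by edgeR, 0.00534 by DESeq2, 0.0452 with the caudal Hox genes as a covariate) and 0.28 in Pcp2-DKO (adjusted p = 0.619). The replicate numbers were taken to pair control with NF-KO, and with that pair of groups fitted alone and the number as a block the adjusted p of B2m in NF-KO was 0.0063 at a log2 fold change of 0.44, short of the fold threshold. The transporter gene Tap1 was at 3.91 ± 0.412 CPM in control, 5.08 ± 0.685 in NF-KO, 4.82 ± 0.543 in AnkG-KO and 5.13 ± 0.258 in Pcp2-DKO (SD, n = 3, 3, 2 and 3), and every knockout library lay above every control library (log2 fold change 0.38, 0.30 and 0.39, adjusted p = 0.514, 0.957 and 0.609). Tap2 was at 17.01 ± 0.784 CPM in control, 20.6 ± 2.47 in NF-KO and 18.9 ± 0.443 in Pcp2-DKO (SD, n = 3 each), both without overlap with control (log2 fold change 0.27 and 0.15, adjusted p = 0.427 and 0.679), while AnkG-KO overlapped with it. Psmb8 was at 3.11 ± 0.737 CPM in control and 4.60 ± 0.655 in NF-KO with overlapping libraries, and Psmb9 at 1.37 ± 0.163 and 1.88 ± 0.778. Tapbp ranged 1.16-fold over all 11 libraries, from 42.5 to 49.5 CPM, with every Pcp2-DKO library above every control library (log2 fold change 0.13, adjusted p = 0.639).

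Nlrc5, the class I coactivator, was highest in AnkG-KO. It was at 1.53, 1.63 and 1.55 CPM in control, 1.43, 1.25 and 1.78 in NF-KO, 2.74 and 2.54 in AnkG-KO and 1.14, 1.96 and 1.36 in Pcp2-DKO. Both AnkG-KO libraries lay above the other 9, and the log2 fold change was 0.75 (adjusted p = 0.578, standard error 0.24). With H2-K1 at 42.2 and 39.99 CPM and H2-D1 at 75.8 and 70.4 CPM, the classical chains did not stand above control in the same libraries.

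The main class II chains and Cd74 spread widely, with the highest levels in NF-KO and the lowest in AnkG-KO library 2. Cd74, the invariant chain, was at 5.30, 16.6 and 14.3 CPM in control, 39.0, 55.4 and 27.3 in NF-KO, 11.5 and 4.87 in AnkG-KO and 10.1, 13.6 and 7.24 in Pcp2-DKO. H2-Aa, the alpha chain of the A molecule (chr17:34493404-34506798, minus strand), was at 1.87, 7.93 and 7.19 CPM in control, 16.6, 26.1 and 12.1 in NF-KO, 4.39 and 0.891 in AnkG-KO and 4.83, 6.28 and 2.33 in Pcp2-DKO. Every NF-KO library exceeded every other library for both genes, and control library 1 was far below the other controls. The beta chains behaved likewise, with H2-Ab1 at 4.57 ± 2.44 CPM in control and 13.03 ± 4.62 in NF-KO, and H2-Eb1 at 4.72 ± 2.10 and 14.5 ± 4.53 (SD, n = 3 each).

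None of these differences passed against control. In NF-KO the log2 fold change was 1.74 for Cd74 (standard error 0.51, adjusted p = 0.400), 1.68 for H2-Aa (standard error 0.71, adjusted p = 0.633) and 1.61 for H2-Eb1 (standard error 0.51, adjusted p = 0.448). Over the class II side 0 of 12 members passed by edgeR in NF-KO against control. An unadjusted p under 0.05 was found for 6 (5 of 11 without H2-Ea-ps, which passed the count minimum only through NF-KO libraries), where 7.69% of all genes had one. DESeq2 passed 1, Ciita, among 158 of 17557 genes that it passed. In AnkG-KO against control 0 passed by either tool and 0 had an unadjusted p under 0.05 (5.39% of all genes). In Pcp2-DKO against control 0 passed by either tool and 2 of 12 had an unadjusted p under 0.05 (7.77% of all genes). In Pcp2-DKO against NF-KO 0 passed by edgeR and 7 had an unadjusted p under 0.05 (6 of 11 without H2-Ea-ps), where 16.2% of all genes had one. DESeq2 passed 3 in that comparison, Cd74, Ciita and H2-Eb1, all lower in Pcp2-DKO, among 408 of 17557 genes that it passed. In Pcp2-DKO against AnkG-KO and in the interaction 0 passed by either tool, with 0 at an unadjusted p under 0.05 (8.48% and 10.3% of all genes).

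**Figure D3:**
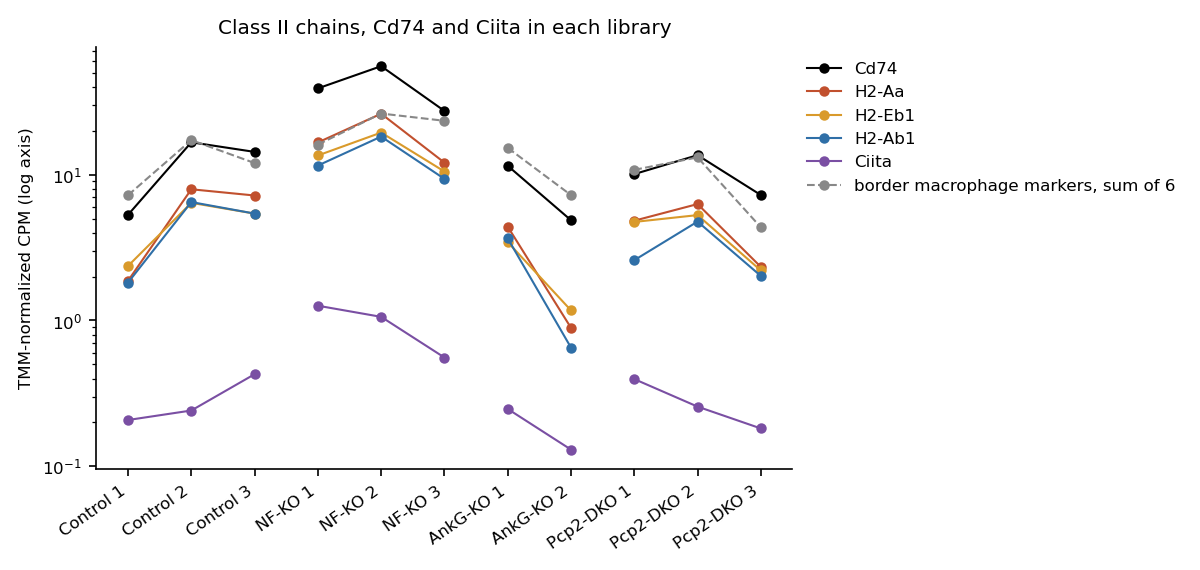
Cd74, H2-Aa, H2-Eb1, H2-Ab1 and Ciita and the sum of 6 border macrophage markers in each library, as TMM-normalized CPM on a log axis. Lines join libraries of 1 genotype for reading only, since replicates have no order. The NF-KO libraries are the highest for Cd74 at 27.3 to 55.4 CPM, and AnkG-KO library 2 the lowest at 4.87 CPM.

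Ciita, the class II coactivator, followed the chains at a far lower level. It was at 0.208, 0.242 and 0.428 CPM in control, 1.26, 1.06 and 0.557 in NF-KO, 0.248 and 0.130 in AnkG-KO and 0.397, 0.257 and 0.182 in Pcp2-DKO. All 3 NF-KO libraries lay above all others, by 1.70 on the log2 scale against control (standard error 0.44, adjusted p = 0.203 by edgeR, 0.0268 by DESeq2). Scaled by exon length its mean level was 0.0409 CPM per kb, against 7.42 CPM per kb for Cd74.

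Among the chains that edit class II peptides, H2-DMb1 was highest in NF-KO as the main chains were, while H2-DMa was not. H2-DMa was at 5.21 ± 1.41 CPM in control, 5.61 ± 0.430 in NF-KO, 5.78 ± 0.645 in AnkG-KO and 6.82 ± 0.548 in Pcp2-DKO (SD, n = 3, 3, 2 and 3), and its range over all libraries was 1.90-fold, against 29.3-fold for H2-Aa. H2-DMb1, its beta partner, was at 1.20, 1.89 and 2.17 CPM in control, 2.45, 2.54 and 3.29 in NF-KO, 2.29 and 0.847 in AnkG-KO and 1.61, 2.01 and 1.77 in Pcp2-DKO. Every NF-KO library lay above every other library, and AnkG-KO library 2 was the lowest, but the log2 fold change of 0.65 in NF-KO did not pass (standard error 0.32, adjusted p = 0.700). H2-DMb1 shares 22.7% of its words with H2-DMb2, which was at 0.104, 0.141 and 0 CPM in control and 0.325, 0.308 and 0.0929 in NF-KO with overlap (log2 fold change 1.51, adjusted p = 0.732). H2-Oa, the alpha chain of the H2-O inhibitor of H2-DM, was lower in all 3 NF-KO libraries (0.134, 0.366 and 0.316 CPM) than in control (0.520, 0.523 and 0.4999), with a log2 fold change of -0.91 (adjusted p = 0.639). H2-Eb2, a minor beta chain, was lower in Pcp2-DKO (0.140, 0.187 and 0.109 CPM) than in control (0.312, 0.362 and 0.309), with a log2 fold change of -1.18 (adjusted p = 0.619), and lay below control in AnkG-KO too (0.227 and 0.130 CPM). H2-Ob and H2-DMb2 stayed at or below 1.07 CPM in every library.

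H2-Ea-ps, the row for the alpha chain of the E molecule (H2-Ea in GENCODE, chr17:34560926-34563618, minus strand), was present in only 2 of the 11 libraries above the detection floor. It held 186 counts in NF-KO library 1, 294 in NF-KO library 2, 1 in Pcp2-DKO library 3 and 0 in each of the other 8, NF-KO library 3 included. Those counts equal 3.56 and 5.66 CPM. The row passed the count minimum only through these NF-KO libraries. C57BL/6 mice carry the H2-b haplotype, in which this gene is known to be silent because its promoter is deleted. The labels and methods do not give the H2 haplotype of each mouse, and its part in these values was not tested. In the fit of NF-KO and control alone with the replicate number as a block, H2-Ea-ps and H2-Q6 also passed, where 248 of 17097 genes did. H2-Ea-ps passed without NF-KO library 3 too. Because the row was kept only through NF-KO libraries 1 and 2, these passes are no test of NF-KO. H2-Ea-ps was singled out after its values were seen.

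**Figure D4:**
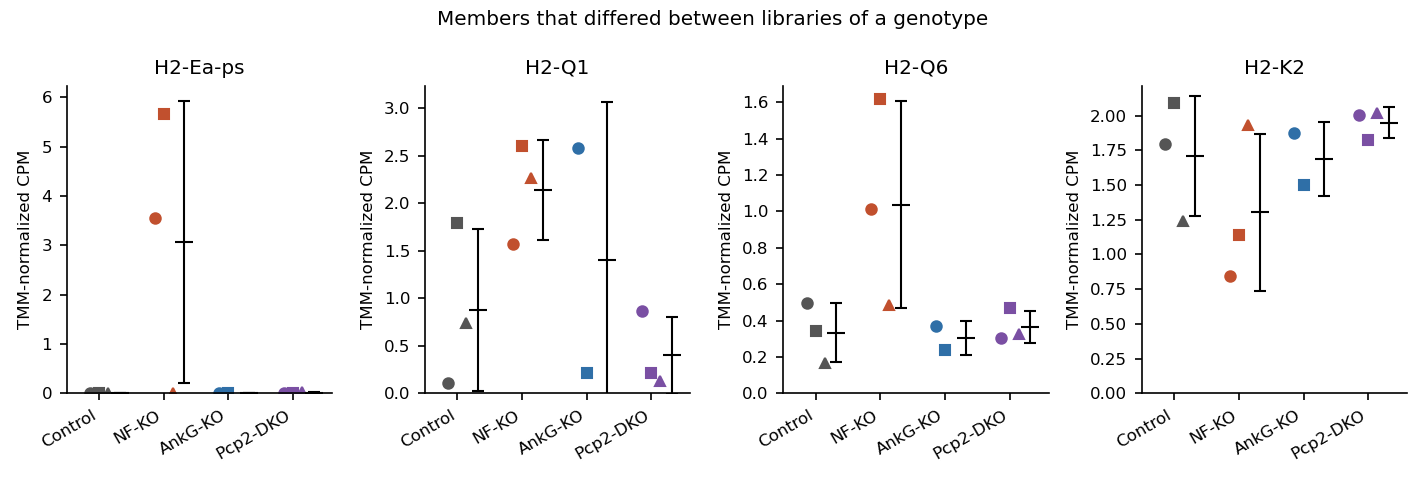
H2-Ea-ps, H2-Q1, H2-Q6 and H2-K2 as TMM-normalized CPM on linear axes from 0, with circles, squares and triangles for libraries 1, 2 and 3 of a genotype and bars for mean ± SD. NF-KO libraries 1 and 2 (circle and square) carry H2-Ea-ps at 3.56 and 5.66 CPM, and H2-Q1 differs between the AnkG-KO libraries at 2.58 and 0.217 CPM.

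Markers of border macrophages, cells that express class II, had their highest mean in NF-KO, as the main class II genes did. They were not in step library by library. Control library 2 exceeded NF-KO library 1 in the marker sum, yet H2-Aa, H2-Ab1, H2-Eb1 and Cd74 summed to 37.5 CPM in it against 80.6. The summed level of the 6 markers, Mrc1, Cd163, Lyve1, Pf4, F13a1 and Ms4a7, was 7.23, 17.2 and 12.0 CPM in control, 16.0, 26.2 and 23.4 in NF-KO, 15.2 and 7.23 in AnkG-KO and 10.78, 13.1 and 4.35 in Pcp2-DKO, and no marker was at 0 in any library. The sum of H2-Aa, H2-Ab1, H2-Eb1 and Cd74 divided by this marker sum was 1.57, 2.17 and 2.69 in control, 5.03, 4.54 and 2.53 in NF-KO, 1.51 and 1.05 in AnkG-KO and 2.06, 2.28 and 3.17 in Pcp2-DKO. Relative to the markers, NF-KO libraries 1 and 2 were thus above all others, and NF-KO library 3 lay within the control range. The 5 meningeal fibroblast markers, Col1a1, Col1a2, Dcn, Lum and Col3a1, summed to 97.3 to 254 CPM in control, 228 to 1058 in NF-KO, 92.4 and 199 in AnkG-KO and 71.0 to 333 in Pcp2-DKO. The 8 microglia markers varied less, from 346 to 499 CPM, and were highest in Pcp2-DKO library 3. Markers of T and NK cells were low but also higher in NF-KO: the 6 genes summed to 0.803, 0.867 and 0.836 CPM in NF-KO and to 0.397 to 0.582 CPM in the other 8 libraries, with 5 of 6 at a higher fitted level in NF-KO than in control and none past the test. The 4 B cell markers summed to 1.17 to 1.91 CPM in NF-KO, 1.09 to 1.17 in control, 0.630 and 1.07 in AnkG-KO and 0.583 to 1.22 in Pcp2-DKO, all 4 with a positive and none with a passing log2 fold change in NF-KO. Alas2, a gene of red blood cell precursors, was at 30.7 to 34.0 CPM in NF-KO, 12.2 to 16.5 in control, 20.8 and 37.3 in AnkG-KO and 12.7 to 25.3 in Pcp2-DKO. The 5 dendritic cell markers, Flt3, Cd209a, Itgax, Zbtb46 and Clec9a, were not higher in NF-KO as a set. They summed to 30.5 to 39.0 CPM in NF-KO and 30.7 to 42.5 in control, with 2 of 5 higher and 3 lower in NF-KO. The 5 endothelial markers summed to 203 to 271 CPM in NF-KO and 197 to 230 in control, with 3 higher and 2 lower. The part of these cells in the class II levels was not tested.

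Over whole sides, class II lay further from control than class I in NF-KO, which is a description with no test. In NF-KO the median log2 fold change was 1.51 over the 12 class II side members, the same to 2 decimals without H2-Ea-ps, and 0.26 over the 24 class I side members, against -0.0050 over all genes. In AnkG-KO it was -0.36 for class II (-0.57 without H2-Ea-ps) and 0.01 for class I, and in Pcp2-DKO -0.03 and 0.19. Of the 38 members, 11 had every NF-KO library above every control library, where 7.42% of all genes did, and 3 had every one below, where 6.51% did. In AnkG-KO 4 members were above (11.7% of all genes) and 4 below (12.3%), and in Pcp2-DKO 6 were above (7.65%) and 2 below (6.8%). These comparisons share the control libraries. In AnkG-KO the class II median was -1.10 without AnkG-KO library 1, -0.16 without AnkG-KO library 2 and -0.18 without control library 2, and the class I median -0.07 without AnkG-KO library 1 and 0.14 without AnkG-KO library 2. The class II median in NF-KO was 0.91 without NF-KO libraries 1 and 2, and 1.20 without control library 1. The class I median in NF-KO lay between 0.075 and 0.33 over the alternatives, and between 0.17 and 0.33 with 1 library left out.

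**Figure D5:**
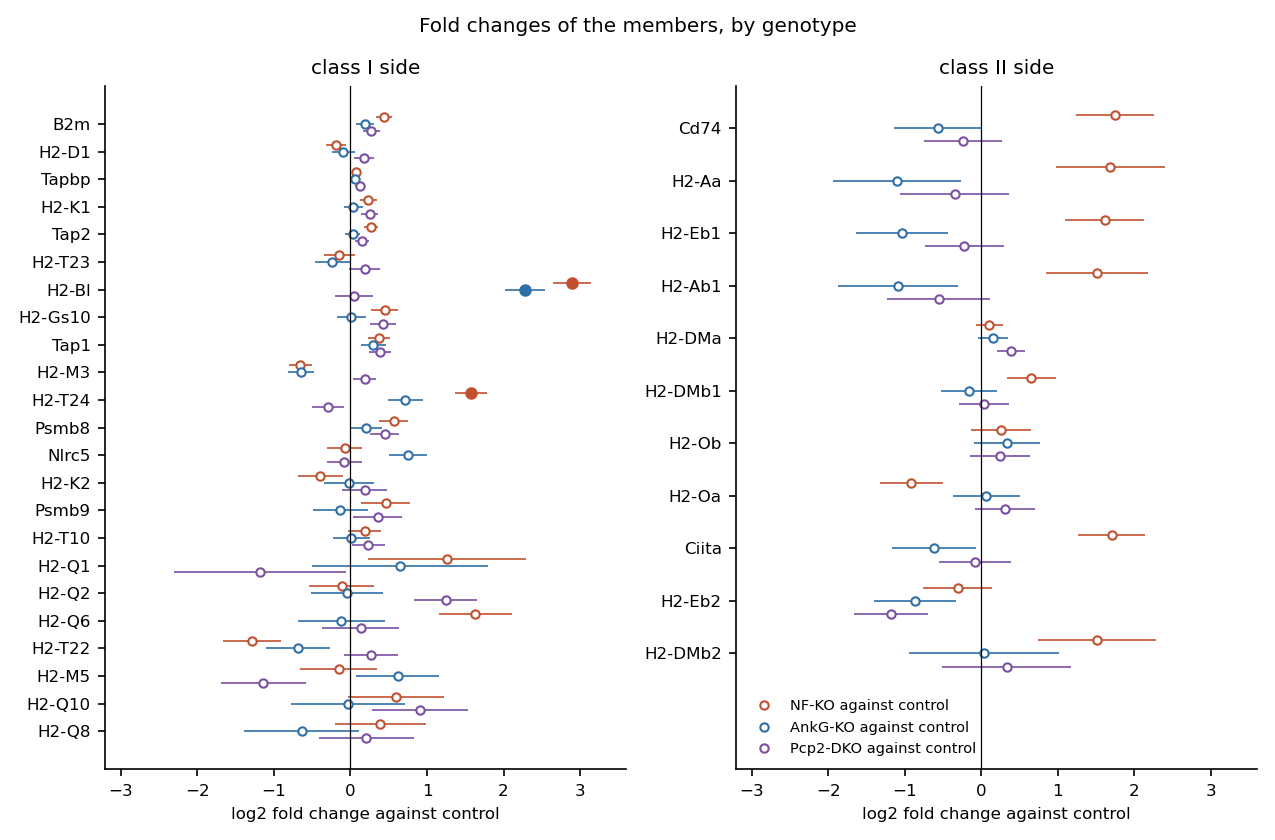
Log2 fold changes against control with their standard errors from edgeR, for 23 class I side and 11 class II side members in order of mean level, in NF-KO, AnkG-KO and Pcp2-DKO. Filled points passed the test, and H2-T3, with 17 counts in all, and H2-Ea-ps, with counts in 3 libraries, are left out. The only filled points are H2-Bl at 2.89 and 2.28 and H2-T24 at 1.58.

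Of the 38 members, 36 were found in the GENCODE vM39 annotation of GRCm39, 32 of them on chromosome 17 between 34134873 and 37585384. B2m lies on chromosome 2, Nlrc5 on 8, Ciita on 16 and Cd74 on 18. The other 99 genes tested within this span of chromosome 17 gave 2 that passed in NF-KO against control, A930015D03Rik and Gm8801, and the rest of chromosome 17 gave 17 of 614 (2.77%), against 34 of 14474 (0.235%) on the other chromosomes. In AnkG-KO and in Pcp2-DKO against control 0 genes of chromosome 17 other than members passed. The part of this chromosome-wide difference in the H2-T24 and H2-Bl values was not tested. The position of H2-Bl was read only from the RefSeq gene order, where it stands on chromosome 17 between Gm11127 and H2-T-ps.

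H2-Ke2 and H2-Ke6, which carry MHC names but encode a prefoldin subunit and an enzyme of steroid and fatty acid metabolism, were level. H2-Ke2 lay between 28.8 and 33.4 CPM and H2-Ke6 between 17.1 and 24.9 CPM in the 11 libraries. H2-Ke6 shares 70.8% of its words with Gm20427, and its counts are uncertain.

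The wider antigen presentation pathway was examined as 49 further genes, of which 46 passed the count minimum. None passed in NF-KO, AnkG-KO or Pcp2-DKO against control by edgeR, with 8, 6 and 8 genes at an unadjusted p under 0.05 of 46 (7.69%, 5.39% and 7.77% of all genes had one), 0 by DESeq2 and median log2 fold changes of 0.09, 0.03 and 0.04. Ctss, the cathepsin that trims the invariant chain, was at 85.9, 116 and 84.7 CPM in control and 131, 141 and 136 in NF-KO (log2 fold change 0.50, adjusted p = 0.203). Irf7, an interferon regulatory factor, was at 2.703, 2.38 and 2.52 CPM in control, 3.77, 3.77 and 3.16 in NF-KO, and 3.98 and 4.06 in AnkG-KO (log2 fold change 0.49 and 0.67, adjusted p = 0.476 and 0.420). Both genes had no overlap with control in the genotypes named, yet neither passed. The chaperone Hspa5 was at 325, 361 and 338 CPM in NF-KO, above control (286, 292 and 280 CPM), and at 228, 271 and 236 CPM in Pcp2-DKO, below it. Hspa5 differed between Pcp2-DKO and NF-KO by -0.48 (adjusted p = 0.00904) and the chaperone Calr by -0.51 (adjusted p = 0.0452), both under the fold threshold. Hfe, a class I-like gene of iron metabolism, was the 1 gene of this list to pass by edgeR in any comparison, in Pcp2-DKO against NF-KO, at 8.59, 9.64 and 7.04 CPM against 4.42, 4.93 and 5.98 (log2 fold change 0.72, adjusted p = 0.0476 by edgeR), and the call was lost in 14 alternatives. DESeq2 passed Hfe and Ifi30, a thiol reductase of the class II pathway, in Pcp2-DKO against NF-KO, and Hfe and Irf7 in the interaction. Over all genes it passed 408 and 311 of 17557 in these comparisons.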

How the data were processed

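Polyadenylated RNA of 11 libraries labelled cerebellar hemisphere was analysed, grouped by the genotype label (control n = 3, NF-KO n = 3, AnkG-KO n = 2, Pcp2-DKO n = 3). By the labels and the study's methods, the authors trimmed reads with Trimmomatic 0.39, aligned them to GRCm39 with STAR 2.7.11a and deposited raw gene counts, which are the values used here. The methods name STAR's own counter, whereas the closing lines of the table bear htseq-count's names. Those 5 lines were left out. Reads aligned to several places numbered 56.9 to 61.0 per 100 gene counts, and near-identical heavy chains may therefore be undercounted. A second deposited table, the counts over a size factor, was not used.

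Genes with at least 10 counts in total (17557) were fitted in 1 quasi-likelihood model over the 4 genotypes with edgeR 4.0.16 in R 4.3.3 (TMM scaling, robust dispersions, Benjamini-Hochberg adjustment over all genes, two-sided). Standard errors were derived from the log2 fold change and its F statistic. No pair of libraries was identical. DESeq2 1.42.0 with a local fit was an alternative, as were DESeq2's size factors, edgeR's expression filter, no filter, the compared libraries alone, other fold thresholds, covariates for Xist and for caudal Hox genes, members with under 20% shared words only, a replicate block and leaving out each library. Same-numbered control and NF-KO libraries deviated together (r = 0.685, 0.441 and 0.316 over the most variable genes), so the numbers were taken to pair these groups, though the labels do not say what they stand for. Alternatives chosen after seeing the data were leaving out NF-KO libraries 1 and 2, leaving out control library 1 with NF-KO library 1, and the block with NF-KO and control alone. The scripts were tested on simulated data.

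Positions, exon lengths and shared 50-base words came from GENCODE vM39 (GRCm39), and promoters from RefSeq (GRCm38.p6). The members, lists and tests were chosen with earlier results of these data known. Members were named in full if they passed the test, if their libraries did not overlap with control at an unadjusted p under 0.05, if they were among the 5 most abundant of their side, or if their symbol does not begin with H2-. The wider list was named by the first 2 criteria. H2-K2 and H2-Gs10 were assigned to class I after the table was seen.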

Additional observations from a re-analysis of the deposited data

Results flagged for a closer look

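For 3 class I heavy chains Pcp2-DKO differed from the sum of the single-knockout differences, by the interaction test of edgeR with adjustment over all genes. The parts of the knockouts, the chromosome 17 difference and the H2 haplotype in this were not tested. H2-Bl was higher in each of the 5 single-knockout libraries than in each of the 6 control and Pcp2-DKO libraries, and its interaction was -5.12 on the log2 scale (adjusted p = 6.64e-05). Over the alternatives this value lay between -5.44 and -4.51, and its adjusted p did not exceed 0.0442. H2-T24 had an interaction of -2.59 (adjusted p = 0.00169), with an adjusted p of 0.237 once Xist was a covariate and under 0.05 in the other 19 alternatives. H2-M3 had an interaction of 1.49 (adjusted p = 0.0118), and 4 of 20 alternatives ended that call, 2 of them by leaving out an AnkG-KO library. The AnkG-KO group holds 2 libraries, on which each interaction rests.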

How the results depend on the processing

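The dependence was followed for 53 results. These were the results at an unadjusted p under 0.05 of members that met the naming criteria, and the Hfe call. H2-Q6, H2-Ea-ps and the rest of the wider list were not among them. Of their 1119 values under alternatives none changed direction, 35 lost and 15 gained significance. Only results with an adjusted p under 0.05 in the main fit could lose it. On the class I side, with Xist as a covariate the members that passed numbered 1 in NF-KO, 0 in AnkG-KO, 1 in Pcp2-DKO against NF-KO, 0 in Pcp2-DKO against AnkG-KO and 1 in the interaction, against 2, 1, 3, 1 and 3. Calls over all genes fell as well, to 31, 13, 42, 10 and 19 in the same order, against 64, 29, 108, 30 and 93. DESeq2 passed 2 in AnkG-KO, 6 in Pcp2-DKO against NF-KO and 3 in Pcp2-DKO against AnkG-KO. On the class II side it passed 1 in NF-KO and 3 in Pcp2-DKO against NF-KO. Calls over all genes rose too, to 158 in NF-KO and 102 in AnkG-KO, against 64 and 29 in the main fit. They rose to 408 in Pcp2-DKO against NF-KO and 94 in Pcp2-DKO against AnkG-KO, against 108 and 30. Members with under 20% shared words gave 1 in NF-KO and 0 in AnkG-KO and in Pcp2-DKO against AnkG-KO, because H2-Bl has no annotation to measure. Without control library 1 and NF-KO library 1, 1 passed in NF-KO, where 29 of 17421 genes passed. Leaving out NF-KO libraries 1 and 2 leaves 1 NF-KO library. The log2 difference of H2-T24 was then 1.07 in NF-KO and -1.36 in Pcp2-DKO against NF-KO. The causes of the other changes were not tested. Leaving out 1 library at a time gave 2 to 3 class I side members in Pcp2-DKO against NF-KO and 2 to 4 in the interaction, the fourth being H2-D1 without NF-KO library 3, and 0 to 1 class II side members, H2-Ea-ps, in NF-KO and in Pcp2-DKO against NF-KO, again without NF-KO library 3. The replicate block left all counts within 1.5 times, at 2 in NF-KO, 1 in AnkG-KO, 0 in Pcp2-DKO and 2 in Pcp2-DKO against NF-KO. In the last it ended the H2-M3 call. Over all genes the block gave 55, 21, 4 and 85 calls in these comparisons. With NF-KO and control fitted alone it gave 3 class I side members and 1 of the class II side, H2-Ea-ps, where 248 of 17097 genes passed. H2-Ea-ps passed the count minimum only through NF-KO libraries, so none of its calls is a test of NF-KO. H2-M3 was also lost with the compared libraries alone (adjusted p = 0.0668). Members below about 0.5 CPM rest on few counts, and AnkG-KO rests on 2 libraries.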
